A study of Saccharomyces cerevisiae with 11 samples.

Results

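Budding yeast (Saccharomyces cerevisiae) expressing the human chloride channel CFTR was compared with the first 3 of the vector control arrays of the same series, those with sample codes 3 to 5. The 7 arrays, of 11 in all, were chosen by their labels: 4 of yeast expressing CFTR (codes 7 to 10) and 3 of yeast with the vector (vector replicates 1 to 3). The 4 vector arrays with codes 11 to 14 were left out of the comparison. CFTR with a 3HA epitope tag was expressed from the plasmid pRS426PPGK-CFTR-3HA, named for the PGK promoter. The control cells carried pRSGPD426, named for the GPD promoter, so that the plasmids differed by promoter as well as by the CFTR gene. Neither strain background nor host genotype is given in the sources used here. Cultures of both kinds were kept at 26 degrees in selective medium and taken in mid log phase, and total RNA was measured on Affymetrix arrays. Titles of the vector arrays carry the remark "re-analysis". The CFTR arrays are called CFTR replicates 1 to 4 here in the order of deposition (codes 10, 7, 8 and 9), which pairs nothing with the vector replicates. At least 3 biological replicates are named in the series text, though no array is linked to a culture; the p-values therefore measure only how far these arrays vary, and some of that variation may be technical. The sample codes of the groups do not overlap, so that an effect that follows the codes and an effect of CFTR cannot be told apart.

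CFTR is a large membrane protein of the ABC transporter family that crosses the endoplasmic reticulum (ER) membrane many times and folds slowly. In yeast it is known as a substrate of ER-associated degradation, in which misfolded protein is marked with ubiquitin and destroyed by the proteasome, with cytosolic Hsp70 and Hsp90 chaperones acting on its cytosolic domains. A load of misfolded protein can be met by separate transcriptional programmes: the heat shock response, for chaperones of the cytosol, and the unfolded protein response (UPR), for those of the ER.

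The 3 vector arrays did not form a group. Levels are given throughout as log2 of the scaled intensity, where each array averages 1 on the linear scale, and values are relative within an array. Over 5449 genes, vector replicates 1 and 2 differed from each other with an SD of 0.11 (log2), the smallest of the 21 pairs of arrays. Vector replicate 3 differed from them by SDs of 0.50 and 0.52, but from the CFTR arrays by only 0.16 to 0.28. The CFTR arrays differed among themselves by 0.15 to 0.29. Vector replicates 1 and 2 also had flatter distributions, with brightest scaled intensities of 13.7 and 12.4. The brightest was 16.6 to 18.6 in the CFTR arrays and 17.3 in vector replicate 3. In the 4 vector arrays left out it was 18.3 to 19.5. Of the 253 genes whose CFTR mean differed at least 2-fold from the mean of vector replicates 1 and 2, vector replicate 3 lay nearer to the CFTR mean in 241 and nearer to the other vector arrays in 12. For this reason the differences from vector replicates 1 and 2 and from vector replicate 3 are both given below for several lists and genes. Both use the same CFTR arrays. A difference given alone is from the mean of all 3 vector arrays, and it can rest mostly on vector replicates 1 and 2. The labels do not say whether vector replicates 1 and 2 share a culture, and whether vector replicate 3 holds the RNA its label names was not tested; either would change what the differences below mean.

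**Figure D1:**
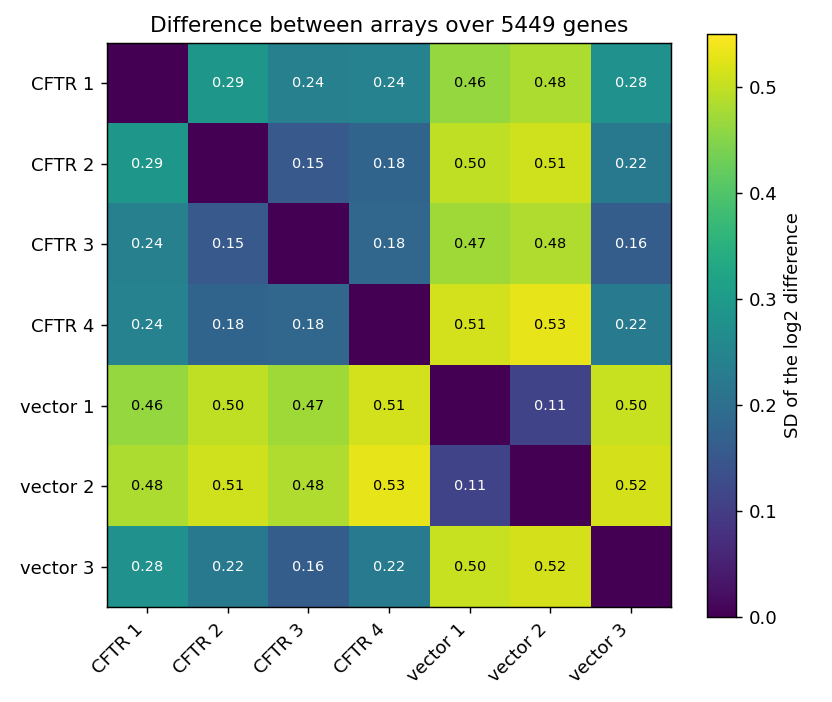
SD of the log2 difference over 5449 genes for each pair of arrays, with CFTR replicates before vector replicates on both axes and darker cells for more similar arrays. Vector replicate 3 falls in the block of similar arrays with the CFTR replicates (0.16 to 0.28), and vector replicates 1 and 2 form a block of their own (0.11).

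With limma and a Benjamini-Hochberg adjusted p under 0.05, 1 gene was higher in CFTR arrays (0.0184% of those tested) and 0 were lower (0.00%). At an unadjusted p under 0.05 there were 396 higher (7.27%) and 1124 lower (20.6%). The smallest adjusted p after that of the called gene was 0.0966. As a description without a test, all 4 CFTR arrays lay above all 3 vector arrays in 274 genes (5.03%) and below them in 602 (11.05%). After quantile normalization, which gives all arrays the same distribution, the same counts were 477 (8.75%) and 512 (9.40%). The median gene was lower by -0.15 on the log2 scale, against -0.01 after quantile normalization. As scaled, the median over all genes was -0.24 against vector replicates 1 and 2 and 0.02 against replicate 3. Single log2 differences below are as measured, and list medians are also given relative to that of all genes. Without vector replicate 3 the fit called 920 genes higher (16.9%) and 2839 lower (52.1%). Against vector replicate 3 alone it called 1 higher and 1 lower (0.0184% each), with the lone array assumed to vary like the CFTR arrays. How far the CFTR comparison reaches over the genome was thus set by which vector arrays stood in it.

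The gene called was UBA1. Its product is the ubiquitin-activating E1 enzyme, the entry point of all ubiquitin conjugation. Its log2 level was 2.65, 2.59, 2.61 and 2.62 in the CFTR arrays, against 1.51, 1.63 and 1.81 in the vector arrays. The CFTR arrays were nearly equal, and the groups were separated by a gap of 0.78. UBA1 rose 1.95-fold (log2 fold change 0.97, SE 0.08, limma adjusted p = 0.016). The difference was 1.05 from vector replicates 1 and 2 and 0.81 from vector replicate 3. Here vector replicate 3 thus did not sit at the CFTR level. The size of the rise changed little between settings, but the call did not hold in all of them. With the near-equal vector replicates 1 and 2 averaged into 1 array the adjusted p was 0.109. It was 0.0846 after median centring and between 0.0776 and 0.157 when CFTR replicate 1, 2, 3 or 4, or vector replicate 1 or 2, was left out, and 3.38e-05 without vector replicate 3.

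The rest of the ubiquitin system had no common direction. Of 33 measured genes for ubiquitin, its conjugating enzymes and quality control ligases, UBA1 alone passed. Of these, 3 lay wholly above the vector arrays and 6 wholly below (5.03% and 11.05% of all genes). After quantile normalization 4 lay above and 3 below (8.75% and 9.40% of all genes). The list's median log2 difference was -0.02, but 0.08 after quantile normalization. UBI4, the polyubiquitin gene, had levels of 2.58, 2.44, 2.46 and 2.54 in CFTR arrays, against 2.15, 2.19 and 2.43 in vector arrays, and its groups were separated by no more than 0.01 (adjusted p = 0.176). The conjugating enzyme UBC1 was the third gene above, by 0.18 (adjusted p = 0.178). SAN1, the nuclear quality control ligase, was lower by -0.42, and UBP14, a protease that takes apart free ubiquitin chains, by -0.48 (adjusted p = 0.176 each). Against vector replicate 3 alone these 2 differences were -0.15 and -0.12. UBC1 was named after its values were seen.

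**Figure D2:**
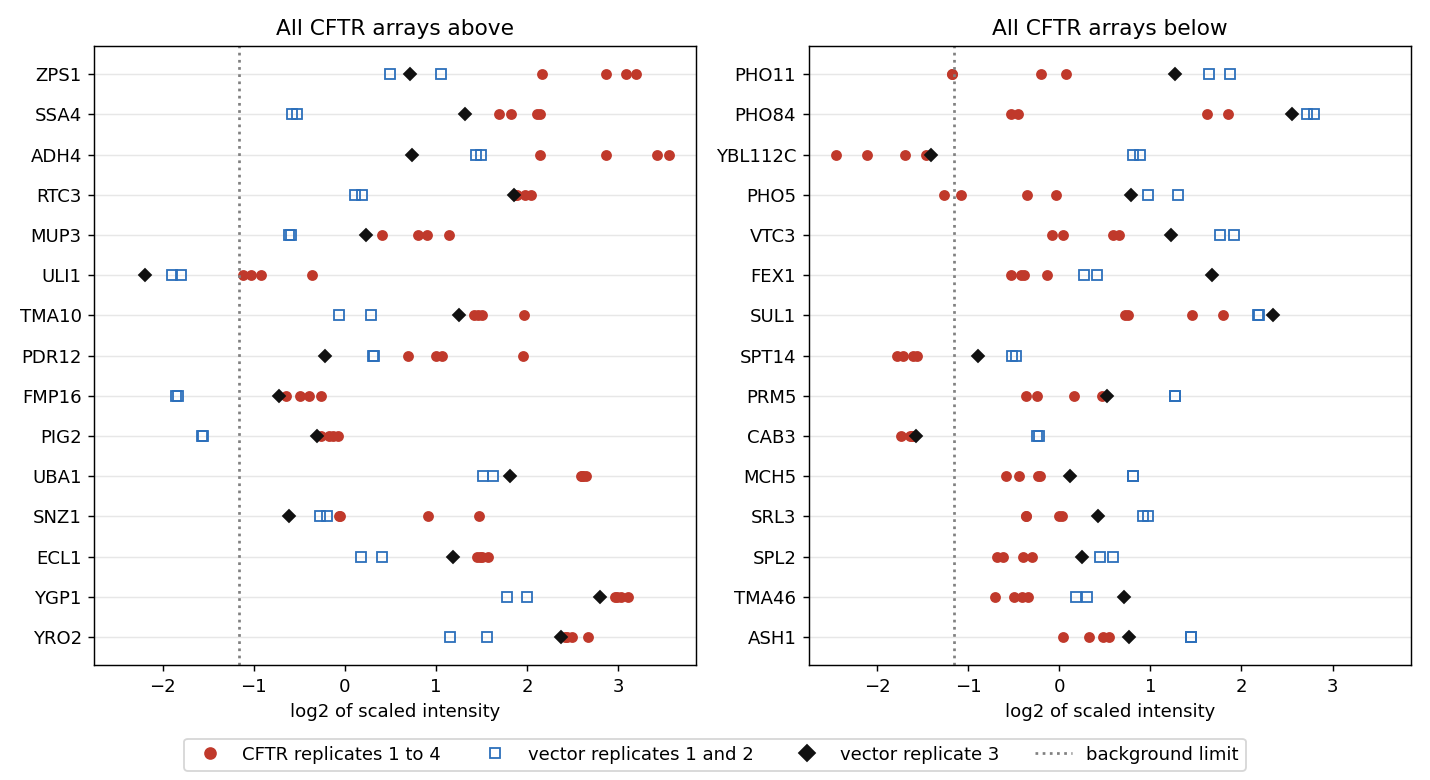
Log2 scaled intensity in every array of the 15 genes with the largest positive (left) and the 15 with the largest negative (right) log2 fold changes among genes whose groups did not overlap and whose brighter group mean lay above the background limit (dotted line at -1.16). Red circles are CFTR replicates, open squares vector replicates 1 and 2, and black diamonds vector replicate 3, which touches the CFTR points for RTC3, FMP16, PIG2, YRO2, YBL112C, PRM5 and CAB3 but not for UBA1, ZPS1, ADH4, PHO11 or FEX1.

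Genes of cytosolic chaperones and the heat shock response had more members wholly above the vector arrays than any other of the 44 lists. Of 43 measured, none passed the test, but 17 lay wholly above and 1 wholly below (5.03% and 11.05% of all genes). After quantile normalization 19 lay above, the same count as for proteasome genes, and 1 below (8.75% and 9.40% of all genes). The list's median log2 difference was 0.28, or 0.43 relative to the median of all genes, and 0.17 after quantile normalization. It was 0.34 against vector replicates 1 and 2 and 0.11 against vector replicate 3, where all genes had -0.24 and 0.02. Averaged over the list, levels were 1.69 ± 0.01 (SD, n = 4) in CFTR arrays and 1.39 ± 0.16 (SD, n = 3) in vector arrays. Vector replicate 3, at 1.57, lay between the CFTR arrays and vector replicates 1 and 2 at 1.30.

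SSA4, a cytosolic Hsp70 that is nearly silent without stress, had log2 levels of 1.70, 2.11, 1.82 and 2.14 in the CFTR arrays, against -0.58, -0.52 and 1.32 in the vector arrays. Vector replicate 3 thus stood close under the CFTR arrays, and the log2 fold change of 1.87 (SE 0.44, adjusted p = 0.176) did not pass. Against vector replicate 3 the difference was 0.63. HSP82, the inducible Hsp90, had 2.49, 2.55, 2.60 and 2.49 in CFTR arrays, against 1.60, 1.56 and 2.24 in vector arrays. It was higher by 0.73 (SE 0.16, adjusted p = 0.176). HSP82 is nearly identical in sequence to HSC82, as SSA1 is to SSA2, and signal from one gene of a pair may reach the probes of the other, which leaves their own values uncertain.

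Most of the Hsp90 partners described here lay above, like HSP82. CPR6, a cyclophilin that binds Hsp90, had log2 levels of 2.49, 2.54, 2.52 and 2.69 in CFTR arrays, against 1.74, 1.78 and 2.19 in vector arrays (log2 fold change 0.66, SE 0.12, adjusted p = 0.176). HCH1, an activator of the Hsp90 ATPase, was higher by 0.31, and its relative AHA1 by 0.38. STI1, which bridges Hsp70 and Hsp90, was higher by 0.25, and CDC37, the co-chaperone for kinases, by 0.26. For STI1 and CDC37 the differences from vector replicate 3 alone were 0.22 and 0.25, so that this array sat with the other vector arrays. AHA1, STI1, CDC37, SSA1 and HSP42 were named after their values were seen. CPR7, the second Hsp90 cyclophilin, was the list member below, at -0.26 (-0.04 and overlapping after quantile normalization), and was also named after its values were seen. MDJ1, the mitochondrial J protein, was higher by 0.57 and lay apart from all vector arrays.

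In other members of the list vector replicate 3 lay close to or at the CFTR level. HSP104, which pulls protein out of aggregates, had log2 levels of 2.81, 2.88, 2.89 and 2.83 in CFTR arrays, against 2.21, 2.18 and 2.74 in vector arrays, with vector replicate 3 under all CFTR arrays by 0.07. HSP26, a small heat shock protein, had 2.13, 2.04, 1.80 and 2.22 in CFTR arrays, against -1.43, -1.35 and 1.94 in vector arrays. Its groups overlapped, and the log2 fold change of 2.33 carried an SE of 0.76 (adjusted p = 0.176). HSP42, the other small heat shock protein, also overlapped, at 0.87 higher on average and 0.09 above vector replicate 3. In a fit of all 11 arrays that estimates the spread over 3 groups and makes the same comparison, 41 genes passed, 17 higher (0.312%) and 24 lower (0.440%), among them UBA1 (adjusted p = 0.0011). CPR6 (0.021) and MDJ1 (0.036) were the 2 members of the chaperone list called there.

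SGT2, which receives tail-anchored membrane proteins for the GET pathway of insertion into the ER, had log2 levels of 2.29, 2.27, 2.28 and 2.31 in CFTR arrays, against 1.92, 1.79 and 2.03 in vector arrays. The CFTR arrays spread less than 0.05, and the difference was 0.37 (SE 0.07, adjusted p = 0.176 here and 0.027 in the fit of 11 arrays). The 36 measured genes of ER translocation and tail anchor insertion, to which it belongs, had 4 members wholly above and 6 wholly below (5.03% and 11.05% of all genes). After quantile normalization 2 lay above and 2 below (8.75% and 9.40% of all genes). The median was -0.03, and 0.07 after quantile normalization.

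Targets of the UPR showed no single direction as scaled, but after quantile normalization more lay above than below. Of 31 measured, 8 lay wholly above and 5 wholly below (5.03% and 11.05% of all genes), and none passed. After quantile normalization 13 lay above and 2 below (8.75% and 9.40% of all genes). The median log2 difference was 0.03, or 0.18 relative to all genes. KAR2, the ER Hsp70, had levels of 3.36, 3.33, 3.36 and 3.47 in CFTR arrays, against 2.91, 2.90 and 3.15 in vector arrays. It was higher by 0.40 (SE 0.08, adjusted p = 0.176 here and 0.036 in the fit of 11 arrays). The groups did not overlap and vector replicate 3 was the highest vector array. ERO1, the thiol oxidase that drives disulfide formation, had 1.72, 1.65, 1.71 and 1.88 in CFTR arrays, against 1.43, 1.48 and 1.43 in vector arrays, and was higher by 0.29 with the vector arrays nearly even.

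ULI1, a small UPR-induced gene, had log2 levels of -0.92, -1.12, -1.03 and -0.35 in CFTR arrays, against -1.89, -1.80 and -2.20 in vector arrays. It was higher by 1.10 (SE 0.20, adjusted p = 0.176). The vector mean lay under -1.16, the 95th percentile of probe sets matched to no yeast gene, so that this size is uncertain. ERV29, a cargo receptor of ER export, was higher by 0.23 and PDI1, protein disulfide isomerase, by 0.33. Against vector replicate 3 alone they were higher by 0.21 and 0.15. HAC1, whose spliced mRNA encodes the UPR transcription factor, differed by 0.12 (SE 0.07, adjusted p = 0.221), and by -0.0003 after quantile normalization. The array measures the total of HAC1 RNA as labelled here and splicing was not analysed. ROT1, an ER membrane chaperone, was lower by -0.35. PDI1 and ROT1 were named after their values were seen.

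Proteasome genes stood above by small amounts. Of 45 measured, 12 lay wholly above and 1 wholly below (5.03% and 11.05% of all genes), with none past the test. After quantile normalization 19 lay above and 1 below (8.75% and 9.40% of all genes). The list's median was 0.06, or 0.21 relative to all genes. The median was 0.03 against vector replicates 1 and 2 and 0.10 against replicate 3. PRE6, a subunit of the core particle, had log2 levels of 2.26, 2.31, 2.40 and 2.35 in CFTR arrays, against 1.93, 1.95 and 2.22 in vector arrays. UMP1, a chaperone of core assembly, was higher by 0.40 and RPN2, a subunit of the regulatory particle, by 0.25. RPN4, which switches on proteasome genes, had 0.79, 1.12, 1.03 and 1.14 in CFTR arrays, against 0.52, 0.55 and 0.84 in vector arrays, and CFTR replicate 1 fell below vector replicate 3. The member below was HSM3, an assembly chaperone, at -0.48, named after its values were seen. Genes of ER-associated degradation had 2 of 29 wholly above and 6 wholly below (5.03% and 11.05% of all genes). After quantile normalization 4 lay above and 1 below (8.75% and 9.40%). Their median of -0.09 was 0.06 after quantile normalization. It was -0.18 against vector replicates 1 and 2 and 0.02 against replicate 3.

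Genes of phosphate and zinc supply are described next; no member of either list passed the test, also against vector replicate 3 alone. The phosphate regulon is switched on by the factor Pho4 when phosphate is short and provides transporters, secreted phosphatases and the enzymes that make polyphosphate. Of 27 measured members, 11 lay wholly below the vector arrays and 1 wholly above, both before and after quantile normalization. Over all genes 11.05% lay below and 5.03% above before it, and 9.40% and 8.75% after it. None passed the test, but 17 had an unadjusted p under 0.05 with the lower level in CFTR, as had 20.6% of all genes. The list's median log2 difference was -0.46, or -0.31 relative to all genes (-0.34 after quantile normalization), and it was -0.62 against vector replicates 1 and 2 and -0.24 against replicate 3.

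PHO84, the high-affinity phosphate transporter, had log2 levels of 1.85, -0.46, -0.53 and 1.62 in CFTR arrays, against 2.72, 2.80 and 2.56 in vector arrays. All CFTR arrays lay below, but CFTR replicates 2 and 3 stood more than 2 units under replicates 1 and 4. The fold change of -2.07 therefore had an SE of 0.62 (adjusted p = 0.176). PHO11 and PHO5, secreted acid phosphatases, showed the same split of the CFTR arrays. The probe set of PHO11 is of the kind that related genes can share, as are those of FEX1 and YBL112C, so that their values may hold signal of a close copy. PHO11 had 0.08, -1.18, -1.18 and -0.20 in CFTR arrays, against 1.64, 1.87 and 1.27 in vector arrays, 4.65-fold lower (log2 fold change -2.22, SE 0.34, adjusted p = 0.161). PHO5 had -0.35, -1.08, -1.27 and -0.03 in CFTR arrays, against 0.98, 1.31 and 0.79 in vector arrays.

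SPL2, which favours the high-affinity transporters over the low-affinity ones, had log2 levels of -0.30, -0.62, -0.68 and -0.40 in CFTR arrays, against 0.45, 0.59 and 0.25 in vector arrays. It was 1.91-fold lower (adjusted p = 0.151). PHO8, the vacuolar alkaline phosphatase, had 0.93, 1.07, 0.97 and 1.15 in CFTR arrays, against 1.45, 1.58 and 1.56 in vector arrays, and did not show the split (log2 fold change -0.50, SE 0.08, adjusted p = 0.164). VTC3, a subunit of the vacuolar complex that makes polyphosphate, had 0.66, -0.08, 0.04 and 0.59 in CFTR arrays, against 1.77, 1.92 and 1.23 in vector arrays. These genes lay apart in every array, and PHO11, PHO5, VTC3, SPL2 and PHO8 were the 5 members called lower in the fit of 11 arrays.

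Further subunits of the polyphosphate complex lay lower by smaller amounts: VTC2 by -0.35 and VTC1 by -0.24, without overlap, and the catalytic subunit VTC4 by -0.54, with CFTR replicate 1 among the vector arrays. PHO81, the inhibitor of the kinase that restrains Pho4, was lower by -0.68. GIT1, a glycerophosphoinositol transporter, was lower by -1.28 with both group means under the background limit, so that its size is uncertain. Other members did not follow. PHO89, a sodium-coupled transporter, was at -1.04, -1.70, -1.63 and -1.75 in CFTR arrays and at 0.60, 0.30 and -1.68 in vector arrays, and lay higher by 0.16 against vector replicate 3 alone. PHM7 was the member above (0.63, with the vector mean under the limit). VTC1, VTC2, VTC4, PHO81, PHO89 and PHM7 were named after their values were seen.

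The zinc regulon is driven by the factor Zap1 when zinc is short. Of 15 measured members, 5 lay wholly above and 1 wholly below, before and after quantile normalization. Over all genes 5.03% lay above and 11.05% below before it, and 8.75% and 9.40% after it. The list's median was 0.29 (0.43 relative to all genes). The median was 0.14 after quantile normalization and 0.17 against vector replicate 3. ZPS1, a cell surface protein, had log2 levels of 3.09, 3.195, 2.17 and 2.87 in CFTR arrays, against 1.06, 0.50 and 0.72 in vector arrays. It was 4.20-fold higher (log2 fold change 2.07, SE 0.25, adjusted p = 0.0966), and the difference from vector replicate 3 was 2.11. ADH4, an alcohol dehydrogenase induced by zinc shortage, had 2.87, 3.56, 2.14 and 3.43 in CFTR arrays, against 1.4999, 1.44 and 0.74 in vector arrays (log2 fold change 1.77, SE 0.35, adjusted p = 0.176). For both genes CFTR replicate 3 was the lowest CFTR array and still lay above the vector arrays.

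ZAP1 itself, which activates its own gene, was higher by 0.60, and levels were -0.54, -0.20, -0.72 and -0.52 in CFTR arrays, against -1.09, -0.97 and -1.25 in vector arrays. ZRT1, the high-affinity zinc transporter, had 3.58, 3.59, 3.48 and 3.58 in CFTR arrays, against 3.22, 3.09 and 3.30 in vector arrays (log2 fold change 0.36, SE 0.07), and after quantile normalization its groups overlapped. ZRT3, which releases zinc from the vacuole, was higher by 0.37. ZRT2, the low-affinity transporter, was the member below, with 1.46, 1.18, 1.59 and 1.60 in CFTR arrays, against 1.79, 1.81 and 1.81 in vector arrays. ZRT2 is known to be repressed by Zap1 in zinc shortage. ZRT2 and ZRT3 were named after their values were seen. ZPS1, ADH4 and ZRT1 were called higher in the fit of 11 arrays.

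**Figure D3:**
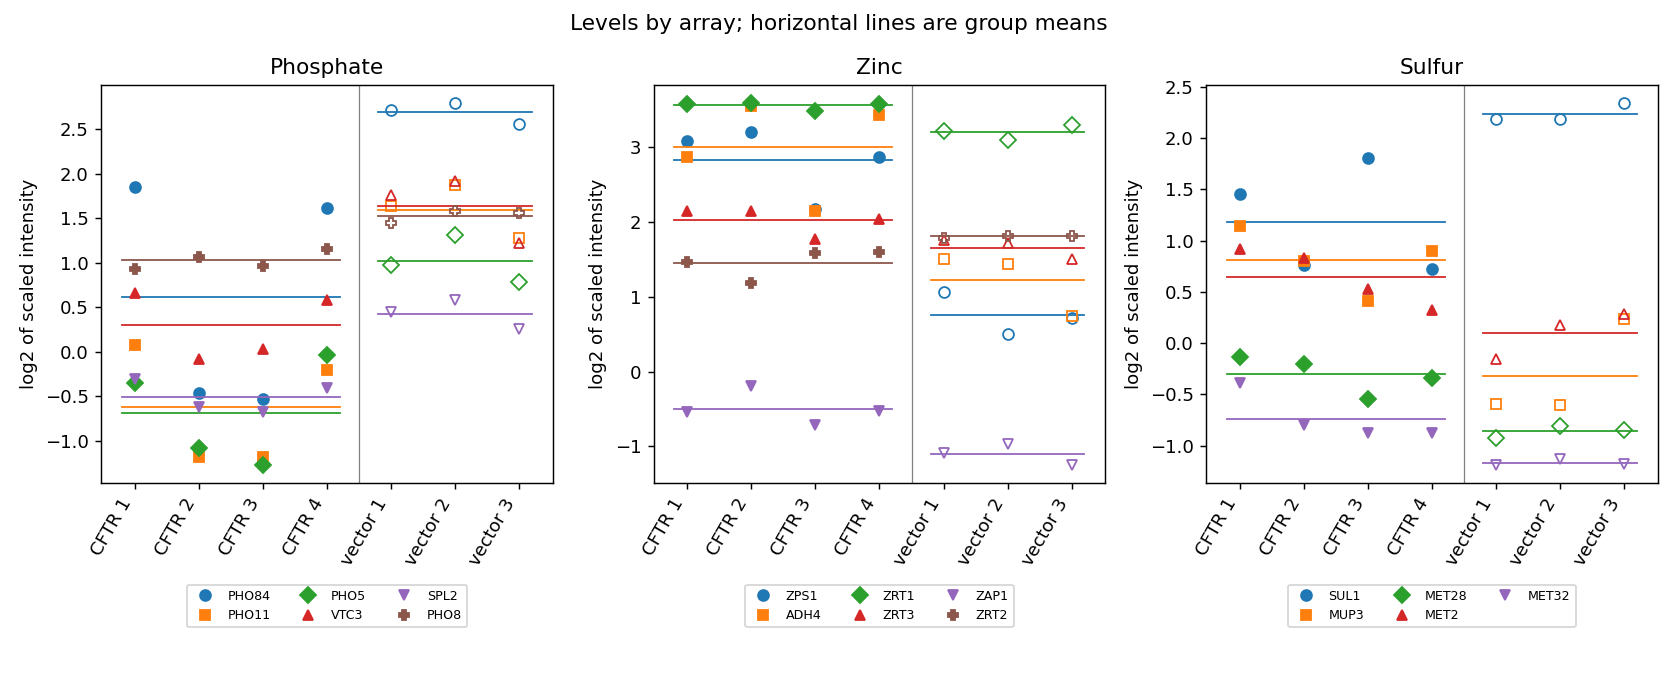
Log2 scaled intensity by array for phosphate, zinc and sulfur genes, with CFTR replicates (filled) left of vector replicates (open) and horizontal lines at the group means. PHO84, PHO11 and PHO5 are low in all CFTR arrays and lowest in CFTR replicates 2 and 3, ZPS1 and ADH4 are high in all CFTR arrays, and SUL1 is lower and MUP3 higher in CFTR arrays.

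Genes of sulfur supply had no common direction, and none passed the test. SUL1, a sulfate permease, had log2 levels of 1.45, 0.76, 1.80 and 0.72 in CFTR arrays, against 2.19, 2.19 and 2.34 in vector arrays (log2 fold change -1.05, SE 0.26, adjusted p = 0.176). MUP3, a low-affinity methionine permease, had 1.15, 0.80, 0.41 and 0.90 in CFTR arrays, against -0.59, -0.61 and 0.24 in vector arrays. In the fit of 11 arrays MUP3 was called higher (adjusted p = 0.039). The regulators MET28 and MET32, which act with Met4 on sulfur genes, were higher by 0.56 and 0.43, and MET2, of homocysteine synthesis, by 0.55. The vector mean of MET32, named after its values were seen, lay just under the background limit. Over 27 measured sulfur genes 4 lay wholly above and 2 wholly below (5.03% and 11.05% of all genes), with a median of 0.05. After quantile normalization 6 lay above and 4 below (8.75% and 9.40% of all genes). In purine synthesis ADE1 was higher by 0.46 without overlap, and ADE17 had 1.54, 2.41, 1.92 and 1.82 in CFTR arrays, against -0.29, -0.04 and 1.54 in vector arrays, where vector replicate 3 met the CFTR level.

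Single genes of the cell surface stood apart from all vector arrays. SPT14, the catalytic subunit for the first step of GPI anchor synthesis, had log2 levels of -1.56, -1.78, -1.60 and -1.71 in CFTR arrays, against -0.52, -0.48 and -0.89 in vector arrays. It was 2.05-fold lower (log2 fold change -1.03, SE 0.13, adjusted p = 0.0966), with a CFTR mean under the background limit, and it passed after quantile normalization (adjusted p = 0.0193) and after median centring (adjusted p = 0.0286). With values floored at the background limit the difference was -0.53 (adjusted p = 0.195), so that its size is uncertain. GPI12, of the second step, was lower by -0.49, while MCD4, a later enzyme of the pathway, was higher by 0.35. Over the 27 measured GPI anchor genes 1 lay wholly above and 3 wholly below (5.03% and 11.05% of all genes). After quantile normalization 4 lay above and 3 below (8.75% and 9.40% of all genes). The list's median was -0.42 against vector replicates 1 and 2 and 0.03 against replicate 3. GSC2, the glucan synthase subunit induced by wall stress, had 1.57, 1.72, 1.52 and 1.72 in CFTR arrays, against 1.18, 1.12 and 0.94 in vector arrays (adjusted p = 0.172).

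Some genes of the cell wall integrity pathway lay below. SLG1, its surface sensor, was lower by -0.64, MKK1, a kinase of its cascade, by -0.65 and PTP2, a phosphatase of that cascade, by -0.65. Against vector replicate 3 alone the differences were -0.31, -0.22 and -0.34. Of 41 measured genes 2 lay wholly above and 5 wholly below, near the shares of all genes (5.03% and 11.05%), and 2 and 8 after quantile normalization (8.75% and 9.40%). PRM5, a known target of the pathway, was lower by -1.01, but vector replicate 3 lay 0.053 above the nearest CFTR array. The list's median was -0.11, against -0.15 for all genes, and -0.12 against -0.01 after quantile normalization. From vector replicates 1 and 2 it was -0.26, and from replicate 3 it was -0.02.

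Among membrane transporters, PDR12, which exports weak organic acids, had log2 levels of 1.003, 1.95, 0.69 and 1.07 in CFTR arrays, against 0.32, 0.31 and -0.21 in vector arrays (log2 fold change 1.04, SE 0.29, adjusted p = 0.176). RSB1, a sphingoid base exporter, was higher by 1.37 and QDR2, a multidrug exporter, lower by -0.45. Both group means of RSB1 lay under the background limit. PDR5, the main drug efflux pump of the same ABC family as CFTR, did not stand apart: it had 1.71, 1.58, 1.85 and 1.56 in CFTR arrays, against 1.82, 1.76 and 1.63 in vector arrays (log2 fold change -0.06, SE 0.09, adjusted p = 0.633). FEX1, a fluoride exporter, had -0.42, -0.14, -0.39 and -0.53 in CFTR arrays, against 0.27, 0.42 and 1.68 in vector arrays. FEX1 was farther from vector replicate 3 (-2.05) than from replicates 1 and 2 (-0.71), and it was the gene called lower against vector replicate 3 alone, beside UBA1 higher.

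EEB1, an acyltransferase of ethyl ester synthesis, had log2 levels of 1.08, 1.01, 0.85 and 0.75 in CFTR arrays, against 0.35, 0.19 and 0.28 in vector arrays. It was 1.57-fold higher (adjusted p = 0.161 here and 0.0092 in the fit of 11 arrays), and by 0.64 on the log2 scale against vector replicate 3. MAF1, the repressor of RNA polymerase III, was lower by -0.48, with 0.01, 0.10, 0.12 and 0.17 in CFTR arrays, against 0.63, 0.70 and 0.42 in vector arrays. TMA46, a ribosome-associated protein, was lower by -0.89, and MCH5, a riboflavin transporter, by -0.95. From vector replicates 1 and 2 they differed by -0.73 and -1.18, and from vector replicate 3 by -1.20 and -0.49. TMA46 and MAF1 passed in the fit of 11 arrays (adjusted p = 0.043 and 0.036), as did ARG2, of arginine synthesis, at -0.61. TRP2, of tryptophan synthesis, was lower by -0.38 and the siderophore transporter SIT1 by -0.80, each without overlap (SIT1 overlapped after quantile normalization).

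A few genes of the G1 phase and of daughter cells lay lower, though the G1 list as a whole was near the background. Few members of the daughter cell list lay wholly below. CLN2, a G1 cyclin, had log2 levels of -0.37, -0.43, -0.15 and -0.61 in CFTR arrays, against 0.05, 0.42 and 0.01 in vector arrays, with overlap after quantile normalization. SRL3, a G1-S target, was lower by -0.95. ASH1, which blocks mating type switching in daughter cells, had 0.55, 0.33, 0.48 and 0.04 in CFTR arrays, against 1.44, 1.45 and 0.77 in vector arrays. DSE1, of cell separation, was lower by -0.66. From vector replicates 1 and 2 ASH1 and DSE1 differed by -1.10 and -0.91, but from vector replicate 3 by -0.42 and -0.17. Of the 26 measured G1-S genes 2 lay wholly above and 4 wholly below (5.03% and 11.05% of all genes). After quantile normalization 3 lay above and 2 below (8.75% and 9.40% of all genes). Their median was -0.15, the same as that of all genes, and 0.06 after quantile normalization. It was -0.18 against vector replicates 1 and 2 and -0.04 against replicate 3. Of 19 measured daughter cell and cell separation genes 0 lay wholly above and 3 wholly below (5.03% and 11.05% of all genes). After quantile normalization 0 lay above and 2 below (8.75% and 9.40% of all genes). The median of that list was -0.21, but -0.29 against vector replicates 1 and 2 and 0.03 against replicate 3.

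For the programmes that follow growth and stress, the result depended on the vector array used. General stress genes, targets of Msn2 and Msn4, had a median log2 difference of 0.79 from vector replicates 1 and 2 over 45 genes, but of -0.004 from vector replicate 3. HSP12, a membrane-stabilising stress protein, had levels of 2.68, 2.15, 1.76 and 2.37 in CFTR arrays, against 0.35, 0.30 and 2.01 in vector arrays. CTT1, the cytosolic catalase, had 0.61, 0.33, -0.12 and 0.88 in CFTR arrays, against -1.20, -1.22 and 0.36 in vector arrays. In both, vector replicate 3 lay inside the CFTR range. TMA10, YGP1 and DDR48 did not overlap, with vector replicate 3 lower than the CFTR mean by 0.34, 0.22 and 0.20. MSN4, one of the 2 factors, was lower by -0.47.

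The same held for genes of growth. Ribosome biogenesis, over 78 genes, had a median of -0.79 against vector replicates 1 and 2 and 0.14 against replicate 3. HAS1, a helicase of ribosome assembly, had log2 levels of 0.80, 0.76, 0.85 and 0.59 in CFTR arrays, against 1.59, 1.70 and 0.9999 in vector arrays. Mitochondrial ribosomal proteins (72 genes) had medians of -0.47 and 0.08, and cytosolic ribosomal proteins (128 genes) 0.39 and -0.04. Of these 278 genes 3 lay wholly above and 3 wholly below (5.03% and 11.05% of all genes). After quantile normalization 14 cytosolic ribosomal protein genes lay above and 5 below, and 4 ribosome biogenesis genes below (8.75% above and 9.40% below over all genes). Several genes with large fold changes, RTC3 (1.23), PIG2 (0.98), FMP16 (1.02), YRO2 (0.81), ECL1 (0.92), CAB3 (-0.97) and YBL112C (-2.02), were also nearer to the CFTR arrays than to replicates 1 and 2 in vector replicate 3. FMP16, CAB3 and YBL112C each had 1 group mean under the background limit, and with a floor there their differences were 0.57, -0.61 and -1.34. Of ESCRT and vacuolar sorting genes, 9 of 25 lay wholly below (11.05% of all genes), but 3 after quantile normalization (9.40% of all genes). The list median of -0.13 was 0.06 after quantile normalization.

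**Figure D4:**
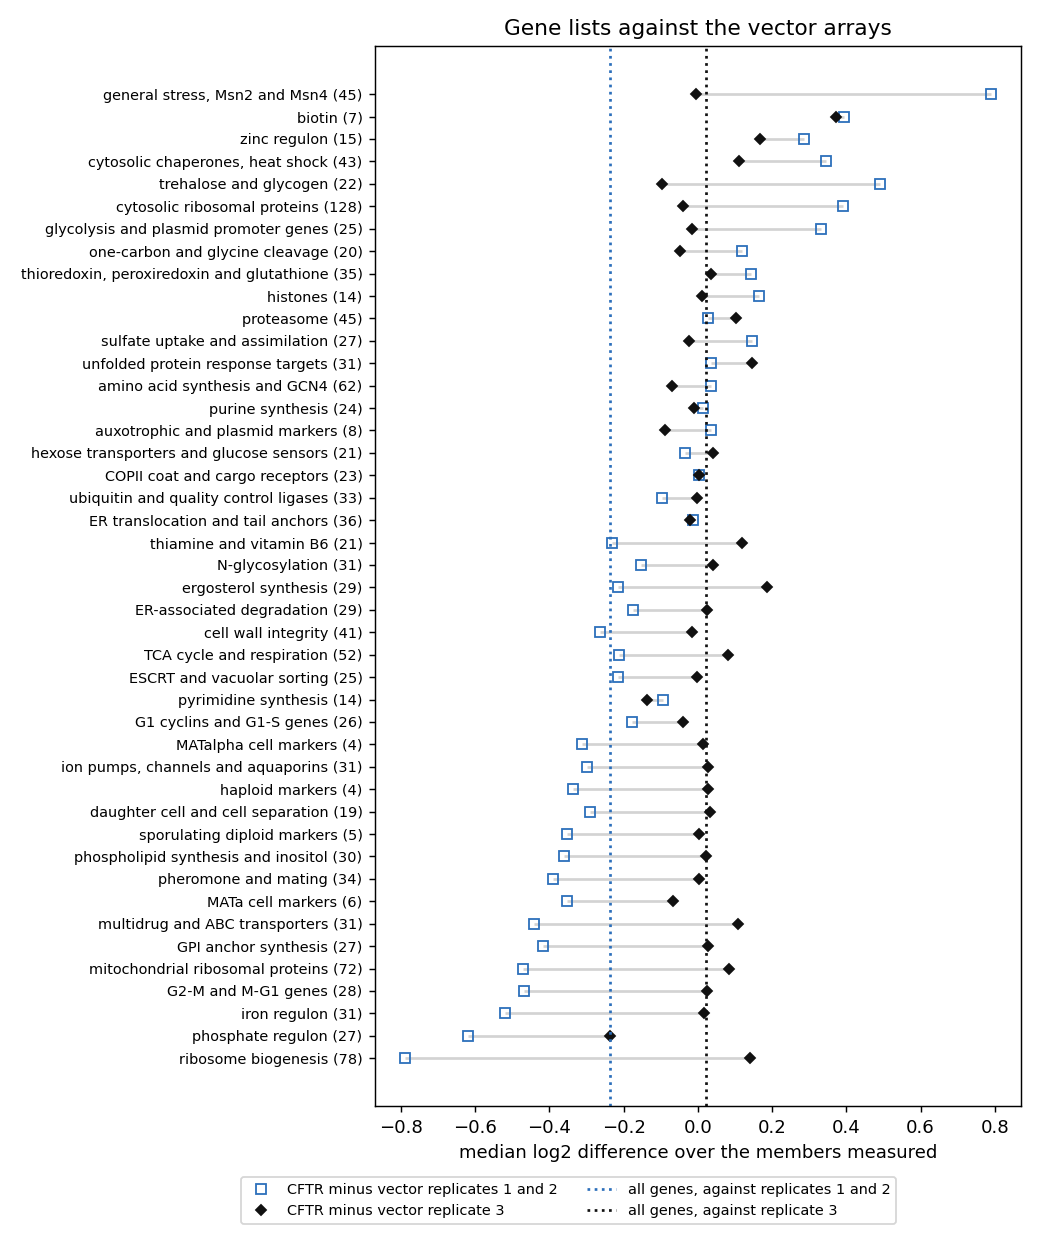
Median log2 difference of each gene list (number of measured members in brackets) for CFTR minus vector replicates 1 and 2 (open squares) and CFTR minus vector replicate 3 (black diamonds), with dotted lines at the medians of all genes (-0.24 and 0.02). General stress genes run between 0.79 and -0.004 and ribosome biogenesis between -0.79 and 0.14, while both points of the phosphate regulon lie below the line of all genes in their own comparison, and those of the zinc regulon and chaperones above it.

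The genes tied to the plasmids did not pass the test. URA3, the selectable marker of pRS426-type plasmids, had log2 levels of 3.51, 3.57, 3.70 and 3.57 in CFTR arrays, against 3.51, 3.37 and 3.92 in vector arrays (log2 fold change -0.01, SE 0.13, adjusted p = 0.943). After quantile normalization all its CFTR arrays lay below the vector arrays, by -0.26 (adjusted p = 0.0953), and without vector replicate 3 as well the difference was -0.25 (adjusted p = 0.0033). TDH3, the gene of the GPD promoter, differed by 0.27, but by -0.01 after quantile normalization and by -0.0003 against vector replicate 3. PGK1 differed by 0.30 and by -0.01 against vector replicate 3. Both promoters' own genes are among the brightest on the array, where vector replicates 1 and 2 were flatter. CFTR itself was not analysed here, so that the labels were not checked by the expressed gene. As a check of the cells, the alpha pheromone gene MF(ALPHA)1 had levels of 3.10, 3.07, 3.10 and 3.09 in CFTR arrays, against 2.88, 2.89 and 3.19 in vector arrays, and of 6 markers of the opposite mating type 5 had both group means under the background limit, as had all 5 markers of sporulating diploids.

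Within the CFTR group, several genes tied to oxygen or heme divided the arrays in a way the labels do not give. Whether oxygen or heme supply differed was not tested. Yeast keeps paired genes for high and low oxygen, through heme: CYC1 and COX5A, of the respiratory chain, are made in air, and ANB1, HEM13, COX5B, AAC3 and TIR1 when oxygen or heme is short. HEM13, of heme synthesis, had log2 levels of 1.12, 3.22, 3.09 and 3.22 in CFTR arrays, against 1.20, 1.23 and 3.25 in vector arrays. CYC1, cytochrome c, had 2.86, -0.03, 0.68 and 1.18 in CFTR arrays, against 2.53, 2.49 and 0.49 in vector arrays. CFTR replicate 1 thus stood with vector replicates 1 and 2, and vector replicate 3 with CFTR replicates 2 to 4.

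More of the genes with a wide CFTR range followed the same division. ANB1 had log2 levels of -0.58, 1.49, 0.95 and 1.43 in CFTR arrays, against -0.06, -0.03 and 1.42 in vector arrays. TIR1, a cell wall mannoprotein, had -0.03, 1.51, 1.02 and 1.18 in CFTR arrays, against -0.06, -0.01 and 1.19 in vector arrays. IZH4, of membrane sterol and zinc balance, had -1.53, 1.82, 1.39 and 1.60 in CFTR arrays, against -1.32, -1.35 and 1.42 in vector arrays. NDE1, a mitochondrial NADH dehydrogenase, ran the other way, with 2.69, 0.29, 0.59 and 1.30 in CFTR arrays, against 2.80, 2.69 and 0.61 in vector arrays. So did COX5A, FRE1, a cell surface metal reductase, and CTR1, the copper transporter, whose CFTR replicate 1 lay at 2.70, 0.72 and 0.57. These genes were named after their values were seen, from those with the widest range over the CFTR arrays, with COX5A and COX5B added as a known pair. CYC7, the low-oxygen partner of CYC1, did not follow it, with 1.36, 1.05, 0.55 and 1.56 in CFTR arrays, against 0.36, 0.27 and 0.76 in vector arrays. The phosphate genes divided the CFTR arrays differently, 1 and 4 from 2 and 3.

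**Figure D5:**
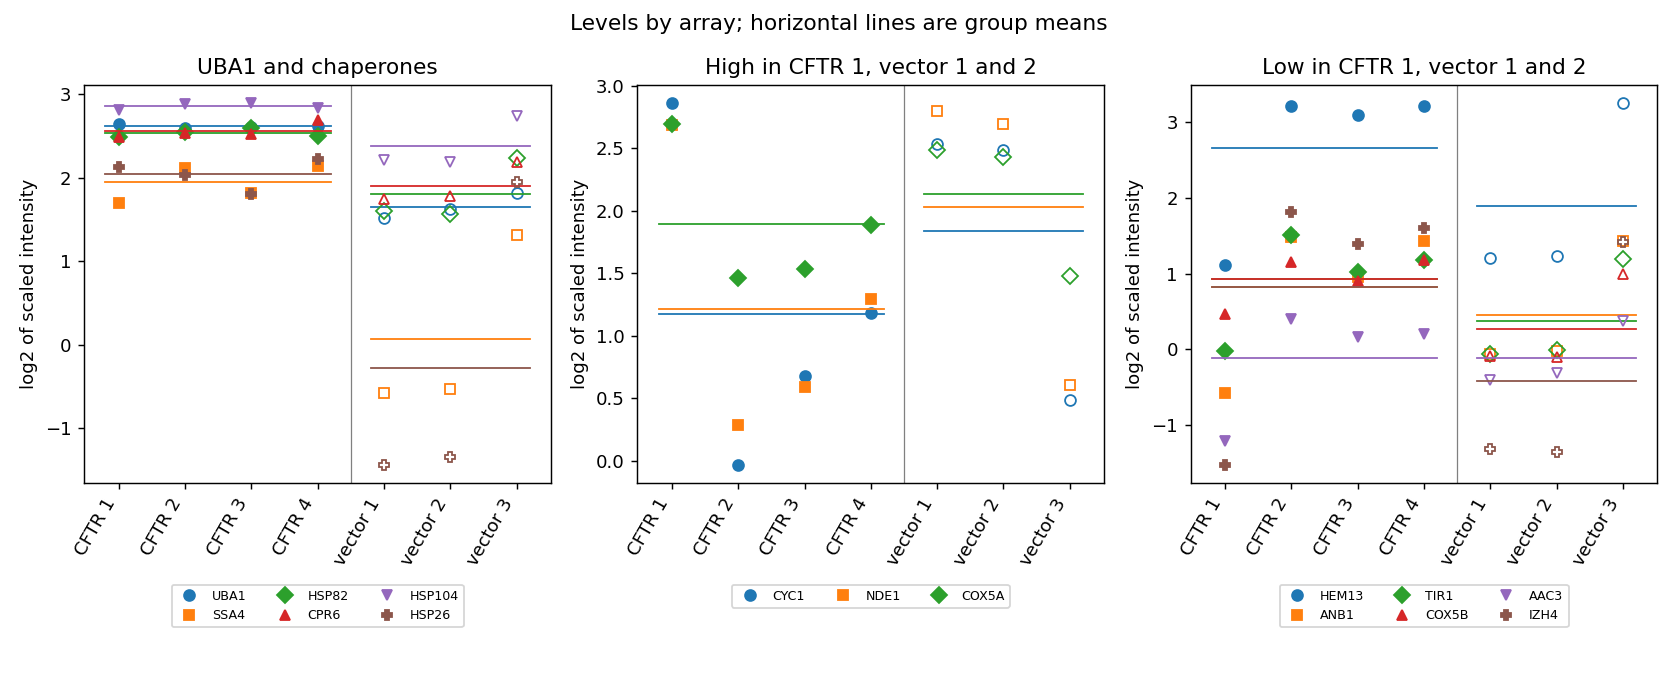
Log2 scaled intensity by array for UBA1 with 5 chaperone genes and for genes that divided the CFTR arrays, with CFTR replicates (filled) left of vector replicates (open) and horizontal lines at the group means. UBA1 lies at 2.59 to 2.65 in CFTR arrays and 1.51 to 1.81 in vector arrays, while HEM13, ANB1, TIR1, COX5B, AAC3 and IZH4 are low, and CYC1, NDE1 and COX5A high, in CFTR replicate 1 and vector replicates 1 and 2.

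Single CFTR arrays also stood out in a few genes, again named after their values were seen. The biotin synthesis genes were highest in CFTR replicate 2: BIO3 had log2 levels of -1.30, 1.69, -0.56 and -0.07 in CFTR arrays, against -0.54, -0.64 and -0.57 in vector arrays. BIO4 and BIO5 had 0.32 and 0.27 in that array and lay under -1 in the other CFTR arrays. SNZ1, of vitamin B6 synthesis, was high in CFTR replicates 2 and 4, at 1.47 and 0.91, against -0.07 and -0.05 in replicates 1 and 3. INO1, of inositol synthesis, overlapped, with -0.41, -1.5045, -1.02 and -0.81 in CFTR arrays, against -0.11, -0.28 and -1.64 in vector arrays. No labelled condition separates these arrays.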

How the data were processed

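The deposited values are probe set intensities from Affymetrix arrays of biotin-labelled cRNA, made from total RNA taken out with hot phenol and purified over columns, per the labels' protocols. Each array averages 1 over its 10715 probe sets, tested on the file, so that the authors had scaled each array by its mean; the sources used here do not state background correction, probe summary or software. Such values cannot show a change of total RNA per cell, and the number of arrays limits the precision.

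Names of probe sets came from the platform annotation and the gene table of assembly R64, used for names only: 5498 had a match to 1 gene, 1746 a name missing from the table, 1 several names and 3470 none. For 47 genes with several probe sets the brightest was taken, which left 5449 genes. The deposited intensities were log2-transformed without a floor and tested with limma 3.58.1 under R 4.3.3, by lmFit and eBayes with the prior variance following intensity, at a Benjamini-Hochberg adjusted p under 0.05. The background limit, -1.16, was the 95th percentile of unnamed or unmatched probe sets, with a median of -3.88. Array scans carry no batch label here.

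The 44 gene lists were described by counts and medians. The members and lists were chosen with earlier results of these data known. Genes named were those past the threshold, the 15 largest differences in each direction without overlap and above the limit, a fixed set of 29 genes, and up to 4 members of each list with the smallest unadjusted p; exceptions are marked in the text. On simulated data of this comparison with 5449 genes, of which 50 were changed by each size, the fit recovered 54% of changes of 0.5 (log2), 82% of 1, 98% of 2 and 100% of 4, with 11 false calls among 178; the simulation held no array that stands apart. Alternatives were array weights, robust eBayes, no intensity trend, median centring, quantile normalization, a fit of 11 arrays in 3 groups, vector replicates 1 and 2 averaged, a filter on dim genes, the mean of probe sets, a floor at the background limit and leaving out each array. Leaving out vector replicates 1 and 2 together, and quantile normalization without vector replicate 3, were added after seeing the data. Figures were drawn with matplotlib 3.10.9.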

Additional observations from a re-analysis of the deposited data

Results flagged for a closer look

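In each item here 1 of the 4 CFTR arrays lay far from the other CFTR arrays, by Dixon's test at the 95% level. Of 167 groups of 4 tested, 13 were picked out. Chance alone picks out about 1 in 20 of groups not chosen by their values. That share does not apply to IZH4, HEM13, AAC3, FRE1, GON7 and MPP6, which are among the genes with the widest range over these same arrays. Many of the other genes tested here were also named by their values in these arrays, so that the share may not hold for them either. Genes that divided the CFTR arrays had their odd value in CFTR replicate 1: IZH4 at -1.53, HEM13 at 1.12 and AAC3 at -1.22 were lower, and FRE1 at 0.72 higher, than in the other CFTR arrays. In the same array the level of VTC2 was low at 0.995, MET32 high at -0.39 and TMA10 high at 1.97. CFTR replicate 3 was low for ZRT1 at 3.48, MCD4 at 1.13 and DDR48 at 2.12, each by a small amount. GON7, of a tRNA-modifying complex, stood at 1.59 in CFTR replicate 2, against -0.79 to -0.73 in the other CFTR arrays. MPP6, of nuclear RNA surveillance, stood at 0.79 in CFTR replicate 4, against -1.36 to -1.23 in the others. The mean of the GPI anchor list was 0.297 in CFTR replicate 2 and 0.259 to 0.266 in the others.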

How the results depend on the processing

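UBA1 was higher in CFTR under all 19 alternatives and passed in 11. It missed after median centring (log2 fold change 1.18) and with vector replicates 1 and 2 averaged (0.93, 0 genes called), and leaving out 1 array gave 0.897 to 1.05, called only without vector replicate 3. The number of genes called, 1, became 3 after quantile normalization (UBA1, HXT15 and SPT14), 3 with a floor at the background limit (UBA1, CDC37 and MAG1, the last named after its values were seen, as was HXT15, whose probe set may be shared by a close copy), 41 in the fit of 11 arrays, 4541 with array weights and 0 to 3759 on leaving out 1 array, the 3759 without vector replicate 3. Array weights gave vector replicate 1 a weight of 16.06 and vector replicate 3 one of 0.0332. Both alternatives added after seeing the data moved it too: 2 without vector replicates 1 and 2 together, and 3051 with quantile normalization and no vector replicate 3. The 876 genes without overlap were 932 to 4200 on leaving out 1 array, 2658 without vector replicates 1 and 2 together and 3787 with quantile normalization and no vector replicate 3; fewer arrays overlap less by construction. Directions turned for PHO89 without vector replicates 1 and 2 (0.16), HAC1 after quantile normalization (-0.0003, and -0.0659 also without vector replicate 3), PDR5 after median centring (0.15) and without vector replicates 1 and 2 (0.0495), TDH3 after quantile normalization (-0.0150), also without vector replicate 3 (-0.0158), and without vector replicates 1 and 2 (-0.0003), and PGK1 without vector replicates 1 and 2 (-0.0086). URA3 turned after median centring (0.20), with array weights (0.11), and ranged from -0.13 without vector replicate 2 to 0.15 without vector replicate 3 on leaving out 1 array (0.01 without CFTR replicate 1). Other causes were not tested. No paired analysis was possible because the CFTR labels carry no replicate numbers. Levels under the background limit limit the sizes of dim genes.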
